A study of Mus musculus with 8 samples.

Results

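The genes described here encode the machinery of oxidative phosphorylation, measured in mouse liver by bulk RNA sequencing. They were chosen by name, as every gene whose symbol marks a subunit of respiratory complexes I to IV or of the ATP synthase (complex V), or begins with the mitochondrial prefix mt-. The rule found 85 of the 16122 genes in the deposited table, 80 encoded in the nucleus and 5 in mitochondrial DNA. Of the 85, 81 are subunits or subunit isoforms, with 38 in complex I, 4 in complex II, 8 in complex III, 16 in complex IV and 15 in complex V. The other 4, Atp5s, Atp5sl, Atp5l-ps1 and Cox7a2l, match by name only. Atp5l-ps1 is annotated as a processed pseudogene, and Cox7a2l is known as a factor that joins complexes III and IV.

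All 8 libraries were made from liver of male mice of the inbred C57BL/6J strain with a wild-type genotype. The labels put 4 libraries in a group called NASH (nonalcoholic steatohepatitis, fatty liver with inflammation) and 4 in a group called WT. The series' design text describes animals bought at 8 weeks of age and then kept for 28 weeks on either normal chow or a diet high in fat, cholesterol and fructose. No label links a group to a diet, so it is an assumption here that NASH mice ate the rich diet and WT mice the chow. Nor do the labels say that each library is a separate animal, so the tests measure the spread between libraries, which may be technical.

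Oxidative phosphorylation burns fuel in mitochondria. Complex I takes electrons from NADH and complex II from succinate, complexes III and IV pass them to oxygen, the proton gradient that forms drives ATP synthesis by complex V, and the liver depends on this for gluconeogenesis and urea synthesis. Complexes I, III, IV and V are assembled from subunits of both genomes, whereas complex II is encoded in the nucleus alone. The mitochondrial genes are transcribed together as long precursors from which the single mRNAs are cut.

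The libraries held between 25760117 and 32684719 counts. Levels below are CPM, the count of a gene relative to the library's total after scaling with edgeR's TMM factors, which ran from 0.967 to 1.40 in NASH and from 0.873 to 0.901 in WT. Replicates are named by their number, means are given ± SD over the 4 libraries of a group, and log2 fold changes are NASH against WT ± SE. Tests are two-sided quasi-likelihood tests in edgeR with Benjamini-Hochberg adjustment over 12351 genes, and a gene is called where the adjusted p is under 0.05. Of the members, 81 were tested, 76 nuclear and 5 mitochondrial. The other 4, Ndufa5, Cox4i2, Cox6b2 and Cox8b, had too few counts.

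Most oxidative phosphorylation genes were measured somewhat lower in NASH, but almost none of the differences exceeded the spread between libraries. The log2 fold change was negative for 77 of the 81 tested members, against 49.1% of all genes tested. Only 1 member was called lower and 0 were called higher, while 6% of all genes tested were called lower and 12.9% higher (18.9% in either direction). At an unadjusted p under 0.05, 16 members were lower and 1 was higher, where 14.8% and 21.3% of all genes were. The median log2 fold change was −0.37 for the nuclear members and −1.03 for the mitochondrial ones, beside 0.01 for all genes tested. The count of calls rested on which libraries were included. Without NASH replicate 1 it was 27 lower and 1 higher, with 1504 genes lower in all. It was 0 lower when any other library, NASH or WT, was left out, and 0 when libraries were scaled by their totals without TMM. DESeq2 called 8 of 84 members lower and 1 higher, with 1277 genes lower and 2273 higher in all.

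**Figure D1:**
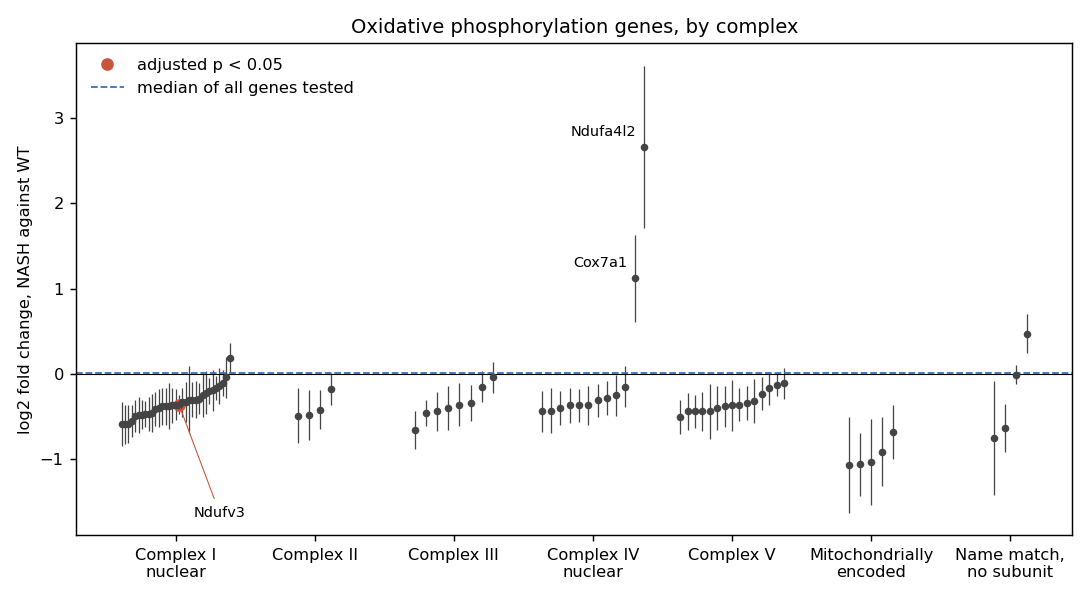
Log2 fold change of each tested member, NASH against WT (vertical axis), by complex (horizontal axis). Points are genes, bars are 1 SE, the red point is the member called and the dashed line is the median of all genes tested, at 0.01. Most nuclear genes of every complex lie just below 0, the 5 mitochondrially encoded genes lie lower, and Ndufa4l2 and Cox7a1 of complex IV lie above.

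The member called was Ndufv3 (ENSMUSG00000024038, GRCm38 chromosome 17, 31520115 to 31531331, plus strand), an accessory subunit of the NADH-oxidising arm of complex I. It measured 41.3, 35.8, 37.9 and 43.4 CPM in WT replicates 1 to 4 and 34.5, 30.3, 27.1 and 31.5 in NASH. The highest NASH library lay just under the lowest WT library. The log2 fold change was −0.36 ± 0.11 (adjusted p = 0.0459 by edgeR). The call was lost when any 1 library other than NASH replicate 1 was left out, with edgeR adjusted p-values of 0.0595 to 0.123. It was also lost with limma-voom (0.0536), without the low-count filter (0.0558) and with library totals alone (log2 fold change −0.01, adjusted p = 0.951).

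The 5 mitochondrially encoded genes had the lowest fold changes of any group of members, though none was called. They are mt-Nd3, mt-Nd4, mt-Nd4l and mt-Nd5, membrane subunits of complex I, and mt-Co3, one of the core subunits of complex IV. The remaining mitochondrially encoded subunits were not analysed here. mt-Nd4 (ENSMUSG00000064363, mitochondrial positions 10167 to 11544) measured 19229, 17202, 19206 and 16022 CPM in WT and 15272, 11444, 4424 and 6930 in NASH. With TMM scaling all 4 NASH libraries were under all 4 WT libraries, and replicates 3 and 4 were far under. As shares of library totals the groups overlapped. The log2 fold change of mt-Nd4 was −0.91 ± 0.40 (edgeR adjusted p = 0.134).

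mt-Nd5 (ENSMUSG00000064367, 11742 to 13565) measured 4643, 5696, 4539 and 3989 CPM in WT and 3844, 3738, 1522 and 2712 in NASH. The groups did not overlap with TMM scaling but did as shares of library totals. In CPM the gap between NASH replicate 1 and WT replicate 4 was small, and the log2 fold change was −0.68 ± 0.32 (edgeR adjusted p = 0.165). mt-Co3 (ENSMUSG00000064358, 8607 to 9390) measured 1084, 576, 736 and 738 CPM in WT and 740, 496, 114 and 139 in NASH. Its first NASH library was as high as most of WT while the last pair was several-fold lower, and the log2 fold change was −1.07 ± 0.56 (edgeR adjusted p = 0.2).

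The short genes mt-Nd3 (ENSMUSG00000064360, 9459 to 9806) and mt-Nd4l (ENSMUSG00000065947, 9877 to 10173) showed the same order of NASH libraries. mt-Nd3 measured 31.3, 31.8, 33.5 and 48.9 CPM in WT and 31.6, 18.5, 8.09 and 12.0 in NASH (log2 fold change −1.06 ± 0.37, edgeR adjusted p = 0.0758). mt-Nd4l measured 88.9, 134, 141 and 94.7 CPM in WT and 114, 54.8, 14.0 and 42.0 in NASH (log2 fold change −1.03 ± 0.50, edgeR adjusted p = 0.171). For both, NASH replicate 1 lay within the WT range and the other 3 NASH libraries lay under it. Without NASH replicate 1, mt-Nd3, mt-Nd4, mt-Nd4l and mt-Co3 were called lower (adjusted p = 0.00572, 0.0407, 0.0169 and 0.0385), and mt-Nd5 was not. Limma-voom called mt-Nd3 (0.0419), and DESeq2 called mt-Nd3 (0.0245) and mt-Nd4 (0.0263).

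**Figure D2:**
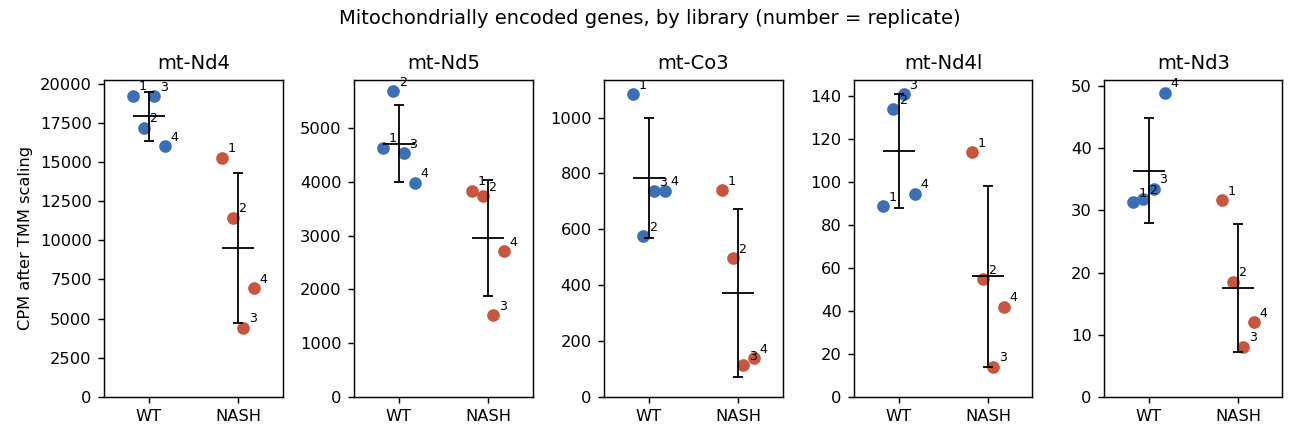
Level of each mitochondrially encoded gene in CPM after TMM scaling (vertical axis, linear from 0) in WT and NASH (horizontal axis). Points are libraries numbered by replicate, the long tick is the mean and the bars are 1 SD (n = 4). In every panel NASH replicate 1 is the highest NASH library and replicate 3 the lowest.

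mt-Nd4l and mt-Nd4 share bases at their junction, which bears on how reads there are counted. The 30 bases at the end of mt-Nd4l (chrM:10144-10173) and the start of mt-Nd4 (chrM:10167-10196) are shown from GENCODE M21 transcripts on GRCm38, plus strand, with the 7 shared bases in capitals.
mt-Nd4l: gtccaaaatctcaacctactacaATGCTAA
mt-Nd4: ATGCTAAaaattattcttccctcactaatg
The start of the mt-Nd4 reading frame lies inside the end of mt-Nd4l, and 2.36% of the mt-Nd4l sequence is shared. Per kilobase of exon, WT levels were 13001 CPM for mt-Nd4, 2586 for mt-Nd5, 1000 for mt-Co3, 386 for mt-Nd4l and 105 for mt-Nd3, so genes of the same precursors spanned a wide range. The highest nuclear members on this scale were Atp5a1 (282 CPM per kilobase in WT) and Atp5b (212).

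In complex I, 32 of the 33 tested nuclear genes had a negative log2 fold change, with a median of −0.36, and Ndufv3 was the 1 called. The 7 nuclear core subunits, which carry the flavin and iron-sulfur clusters or the quinone site, had a median of −0.40, and the 26 tested accessory subunits had a median of −0.34. On CPM after TMM scaling, groups did not overlap for 4 of the nuclear genes and 2 of the mitochondrial ones, all lower in NASH. Over all members the count was 8 of 81 lower and 0 higher, close to the 12.2% of all genes tested that were lower without overlap, and 14.6% were higher.

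Ndufv2, a core iron-sulfur subunit next to Ndufv3, measured 112, 107, 107 and 112 CPM in WT and 96.3, 89.4, 53.4 and 60.6 in NASH. The WT libraries were almost equal and the NASH libraries spread downward from them, for a log2 fold change of −0.55 ± 0.19 (edgeR adjusted p = 0.0656). Ndufb9, an accessory subunit of the membrane arm, measured 115, 97.9, 114 and 101 CPM in WT and 95.5, 88.7, 42.9 and 57.4 in NASH (log2 fold change −0.59 ± 0.23, edgeR adjusted p = 0.103). Of its exon sequence, 19.5% is shared with another annotated gene on the same strand, so its count is less certain. Ndufa6, an accessory subunit of the LYR family and chosen after its values were seen as the other nuclear gene of complex I without overlap, fell short of the threshold at −0.47 ± 0.15 (edgeR adjusted p = 0.0576).

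Some complex I genes stood apart. Ndufa2, an accessory subunit and the only tested complex I gene with a positive value, measured 11.7 ± 2.29 CPM in WT and 13.3 ± 1.46 in NASH (log2 fold change 0.19 ± 0.17, edgeR adjusted p = 0.432). Ndufa5 was nearly absent, with 1, 7, 5 and 6 counts in WT and 1, 0, 0 and 0 in NASH. Whether reads of this gene were lost in counting cannot be told from the table, and the same holds for the low Atp5l of complex V. These genes were chosen after their values were seen.

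Complex II, which also serves the citric acid cycle, had 4 tested genes, all with negative log2 fold changes (median −0.45) and none called. Sdha, its flavoprotein and its most abundant gene, measured 612, 588, 582 and 629 CPM in WT and 607, 585, 213 and 309 in NASH. NASH replicates 1 and 2 lay within the WT range and replicates 3 and 4 far under it, and the log2 fold change of −0.49 ± 0.32 did not pass (edgeR adjusted p = 0.289). Sdhb, the iron-sulfur subunit, showed −0.48 ± 0.29. The membrane anchors Sdhc and Sdhd showed −0.18 ± 0.19 and −0.42 ± 0.23.

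Complex III had 8 tested genes, all negative, with a median of −0.38. Uqcrc2, a core protein with the highest mean level of the complex, measured 274, 266, 259 and 266 CPM in WT and 281, 259, 123 and 167 in NASH (log2 fold change −0.36 ± 0.25, edgeR adjusted p = 0.312). Again NASH replicates 1 and 2 lay at the WT level. Of its exon sequence, 19.7% lies opposite another gene, Pdzd9, and whether the counting used strand is not known here. Uqcrb, a small subunit near the quinone site, had the lowest value of the complex at −0.66 ± 0.22 (edgeR adjusted p = 0.0587), and the hinge protein gene Uqcrh stood at −0.46 ± 0.15 (0.0604) with no overlap between groups. At the other end, Uqcrq measured 50.7 ± 9.08 CPM in WT and 49.3 ± 10.4 in NASH (−0.04 ± 0.18, positive with library totals alone). The last 3 genes were chosen after their values were seen.

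In complex IV, 10 of the 12 tested nuclear genes had negative log2 fold changes, with a median of −0.34. Cox4i1, the regulatory subunit found in most tissues, measured 259 ± 16.6 CPM in WT and 209 ± 52.4 in NASH (−0.31 ± 0.19, and 0.01 with library totals alone). Ndufa4, first assigned to complex I and now placed in complex IV, showed −0.43 ± 0.26. The exceptions were isoforms at low levels. Ndufa4l2, a relative of Ndufa4 known to be induced by hypoxia, measured 0.337, 0.328, 0.377 and 0.525 CPM in WT and 0.118, 0.629, 2.92 and 6.31 in NASH. NASH replicate 1 was under every WT library and replicate 4 far over them, so the log2 fold change of 2.66 ± 0.95 did not pass (edgeR adjusted p = 0.0787). It passed without NASH replicate 1 (0.0108), with library totals alone (0.0458) and with DESeq2 (0.0142). Leaving out NASH replicate 4 brought the log2 fold change to 1.63.

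Cox7a1, the heart and skeletal muscle isoform of subunit VIIa, measured 0.295, 0.328, 0.137 and 0.280 CPM in WT and 0.630, 0.518, 0.304 and 0.831 in NASH. Most NASH libraries were higher, but replicate 3 lay within the WT range (log2 fold change 1.12 ± 0.51, edgeR adjusted p = 0.147). The other tissue isoforms were barely counted. Cox4i2, the lung isoform, reached 0.532 CPM in NASH replicate 4 and at most 0.035 in any other library, Cox6b2, a testis isoform, at most 0.168 CPM, and Cox8b, a muscle isoform, was at 0 in all libraries but WT replicate 4 (0.210 CPM). Isoforms Cox6a2, Cox7b2 and Cox8c were not analysed here. Skeletal and heart muscle markers were also near 0, with a summed level of 0.510 to 2.17 CPM in WT and 0.777 to 3.06 in NASH over the 9 of 10 in the table, and Ckm, Tnnt3 and Myl1 at or under 3 counts in each group.

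Complex V had 15 tested genes, and all had negative log2 fold changes (median −0.37) without a call. Atp5b, the catalytic beta subunit, measured 894, 822, 889 and 985 CPM in WT and 928, 883, 428 and 634 in NASH. The pattern was that of Sdha, with the first pair of NASH libraries at the WT level, and the log2 fold change was −0.32 ± 0.26 (edgeR adjusted p = 0.386). The alpha subunit gene Atp5a1 showed −0.40 ± 0.26. The 5 genes of the F1 head had a median of −0.32, and the 10 genes of the membrane part and stalks had −0.38, with Atp5h, the d subunit of the peripheral stalk, lowest at −0.50 ± 0.20 (edgeR adjusted p = 0.101). Atp5l, the g subunit, had 0.603 CPM per kilobase in WT, the lowest of the complex. Atp5a1, Atp5h and Atp5l were chosen after their values were seen, as were Sdhb, Sdhc, Sdhd, Cox4i1 and Ndufa4.

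Of the genes that match by name only, Atp5sl, linked in human cells to assembly of the membrane arm of complex I, measured 28.4, 28.6, 29.4 and 30.5 CPM in WT and 28.1, 22.9, 9.92 and 14.9 in NASH. WT was tight and no NASH library reached it (log2 fold change −0.63 ± 0.28, edgeR adjusted p = 0.135). Atp5s stood at 0.47 ± 0.23 (edgeR adjusted p = 0.169), and Cox7a2l at 14.6 ± 0.947 CPM in WT and 14.6 ± 0.655 in NASH (−0.01 ± 0.11). Atp5s and Cox7a2l were chosen after their values were seen.

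Among the nuclear members, the lower values lay in some NASH libraries and not in others. As the mean log2 CPM of the nuclear members less the WT mean, NASH replicates 1 to 4 stood at 0.05, −0.13, −0.84 and −0.43, and WT libraries between −0.15 and 0.10. With TMM scaling, NASH replicates 1 and 2 were thus within the WT range and replicates 3 and 4 under it. Complexes I, II, III and V followed the same order. The nuclear genes of complex I stood at −0.22 in NASH replicate 2, just under their WT range of −0.17 to 0.09. In NASH replicate 3 the nuclear genes stood at −0.83 for complex I, −1.22 for complex II, −0.94 for complex III and −0.96 for complex V. The 12 tested nuclear genes of complex IV stood at 0.05, 0.06, −0.57 and −0.03 in NASH replicates 1 to 4, so that replicate 4 lay within the WT range of −0.17 to 0.11. With Ndufa4l2 and Cox7a1 set aside, a choice made after their values were seen, the other 10 stood at 0.08, −0.08, −0.98 and −0.57. The mitochondrial genes stood at −0.14, −0.71, −2.30 and −1.52 in NASH replicates 1 to 4, against −0.05 to 0.05 in WT. Replicates 1 and 2 were thus also under every WT library there, replicate 1 by the least. Without NASH replicate 3 the median log2 fold change was −0.22 for the nuclear members and −0.72 for the mitochondrial ones, and without NASH replicate 1 it was −0.53 and −1.51.

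**Figure D3:**
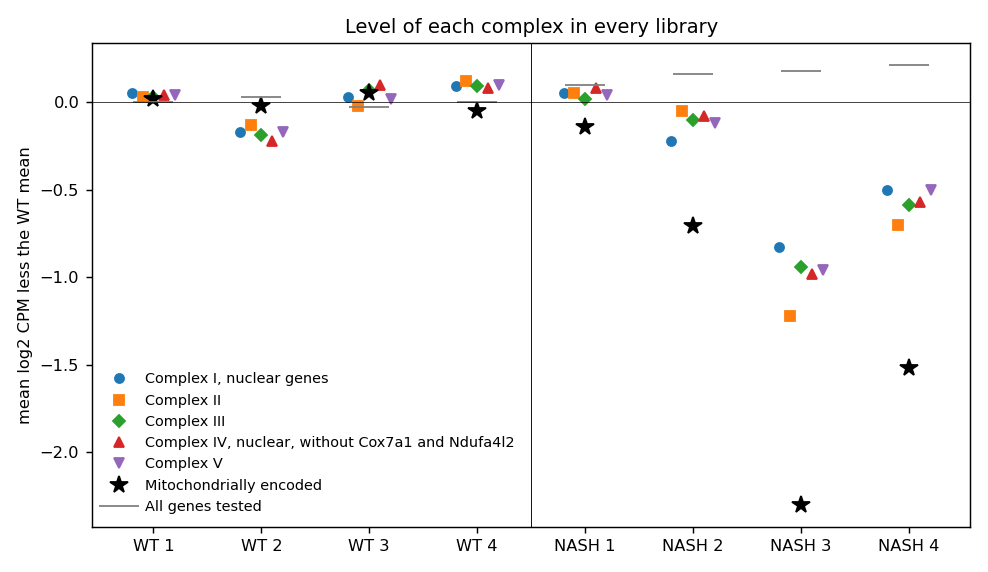
Mean log2 CPM of the tested nuclear genes of each complex less the WT mean (vertical axis) in each library (horizontal axis), with complex IV shown without Cox7a1 and Ndufa4l2, stars for the 5 mitochondrially encoded genes and grey ticks for all genes tested. NASH 1 lies at the WT level for every complex, NASH 3 is lowest, at −0.83 to −1.22 for the complexes shown and −2.30 for the mitochondrial genes.

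Hepatocyte and macrophage markers lay outside the WT range in all 4 NASH libraries, including replicates 1 and 2, where the nuclear members did not. The mean log2 CPM less the WT mean was −0.35, −0.48, −1.70 and −0.79 in NASH replicates 1 to 4 for hepatocyte markers (WT −0.05 to 0.06), and for macrophage markers it ran from 1.41 in replicate 1 to 3.58 in replicate 3 (WT −0.69 to 0.53). The 12 hepatocyte markers, all in the table and none near 0, summed to between 161012 and 194951 CPM in WT and between 47429 and 117842 in NASH, lowest in replicate 3. Of these, 11 had negative log2 fold changes (median −0.77) and 2 were called lower, beside 6% of all genes. The 12 macrophage markers summed to 147 to 415 CPM in WT and 689 to 2347 in NASH, highest in replicate 3. Of these, 9 were called higher, beside 12.9% of all genes. Emr1, Clec4f and Csf1r were not called, and Csf1r alone was negative (−0.14 ± 0.88), at 0.322 ± 0.197 CPM in WT and 0.293 ± 0.254 in NASH. The 8 stellate cell markers summed to 334 to 467 CPM in WT, and 6 were called higher in NASH. In NASH replicates 1 to 4 they summed to 568, 954, 998 and 1403 CPM. The NASH libraries stood in the same order for Ndufa4l2, and also for the summed endothelial and B cell markers. In bulk liver, fewer hepatocytes and less RNA per hepatocyte cannot be told apart. The part of these shifts in the values of the members was not tested.

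Other cell types were marked by smaller sums. Cholangiocyte markers ran from 55.5 to 89.5 CPM in WT and 87.3 to 731 in NASH (2 of 5 tested called higher). Most of that sum was Spp1, at 60.2 ± 15.6 CPM in WT and 337 ± 260 in NASH, while Sox9 showed a log2 fold change of 0.10 ± 0.43. Adipocyte markers ran from 7.56 to 29.7 CPM in WT and 68.6 to 130 in NASH, with 2 of 3 called higher, Fabp4 and Cidea. Of the untested adipocyte markers, Adipoq had 32 counts in WT and 17 in NASH, and Plin1 and Lep were at or under 3 counts in each group. Neutrophil markers ran from 0.959 to 5.58 CPM in WT and 2.91 to 71.1 in NASH, and T and NK cell markers from 4.05 to 5.74 and 9.03 to 19.8 (0 of 3 and 1 of 6 called higher). The T and NK marker called was Il7r, at 0.421 to 0.979 CPM in WT and 2.8 to 15.2 in NASH. Il7r made up most of that sum in NASH replicates 2 to 4. Of the 6 tested, 5 had positive log2 fold changes, and Cd4 had a negative one (−0.91 ± 0.54). B cell markers ran from 1.02 to 2.67 and 1.26 to 6.05, endothelial markers from 127 to 243 and 161 to 317, and erythroid markers from 169 to 277 and 191 to 245, with 0 called. As with the larger lists, their part was not tested.

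Ratios of counts within a library do not depend on how libraries are scaled. Mitochondrially encoded counts divided by nuclear member counts gave 3.11, 3.28, 3.09 and 2.53 in WT replicates 1 to 4 and 2.51, 2.16, 1.61 and 1.92 in NASH. The groups did not overlap, although WT replicate 4 and NASH replicate 1 were almost equal, and the means were 3 ± 0.329 and 2.05 ± 0.384 (n = 4 each). mt-Nd4 supplied 76.0% ± 2.23 of the mitochondrial counts in WT and 73.1% ± 2.44 in NASH, so the ratio mostly reflects that gene. Among nuclear member counts, the share of complex II was 12.6% ± 0.374 in WT and 11.7% ± 1.38 in NASH. The shares of complexes I, III, IV and V were 20.7% and 20.7%, 11.2% and 11.2%, 14.1% and 14.6%, and 40.9% and 41.1% in WT and NASH.

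Set against counts of other genes, the nuclear members stood higher or lower in NASH depending on the genes chosen. Their ratio to the summed hepatocyte markers was 0.0437, 0.0369, 0.0451 and 0.0514 in WT and 0.0675, 0.0651, 0.0799 and 0.0488 in NASH. Of the NASH libraries, 3 were above every WT library and replicate 4 lay within the WT range. The same ratio for the mitochondrial genes was 0.136, 0.121, 0.139 and 0.130 in WT and 0.170, 0.140, 0.128 and 0.0937 in NASH, and here the groups overlapped, with means of 0.132 and 0.133. Against the general mitochondrial genes of the content list, the ratio of nuclear members was 2.23, 2.12, 2.26 and 2.24 in WT and 2.22, 2.18, 1.58 and 1.98 in NASH, so NASH replicates 3 and 4 were under WT and replicates 1 and 2 within it. The hepatocyte ratios depend on the marker list, to which Alb, the serum albumin gene, alone brought 131302 ± 14630 CPM in WT and 66120 ± 23004 in NASH.

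**Figure D4:**
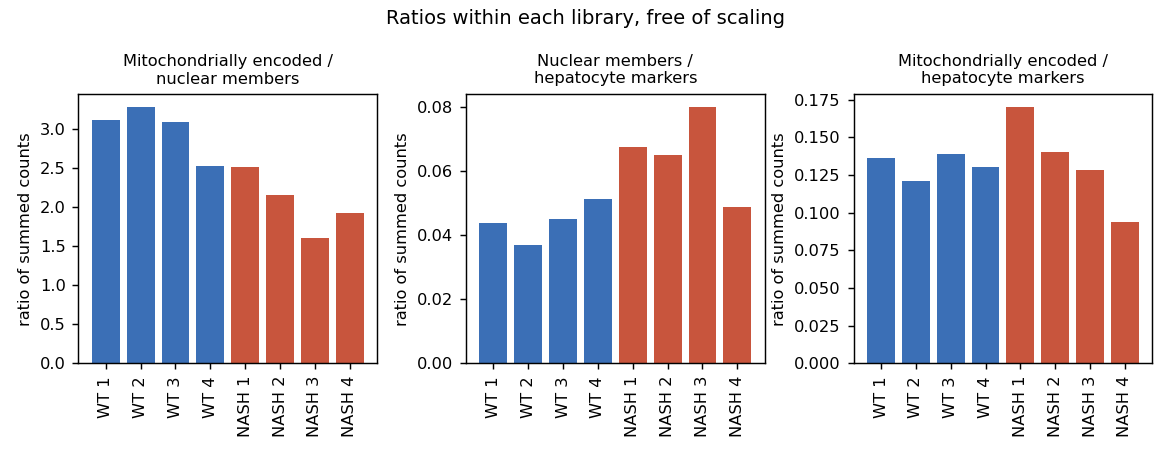
Ratios of summed raw counts (vertical axes, from 0) in each library (horizontal axes), with WT in blue and NASH in red. Mitochondrially encoded over nuclear members is lower in NASH (1.61 to 2.51 against 2.53 to 3.28), nuclear members over hepatocyte markers is higher in 3 of 4 NASH libraries, and mitochondrially encoded over hepatocyte markers overlaps.

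The size of the fold changes depended on the scaling. With library totals alone the median over all genes moved from 0.01 to 0.37 on the log2 scale, the nuclear members moved to −0.05 and the mitochondrial ones to −0.78. Only 53 members were then negative and 28 positive. Relative to the median of all genes the members kept their place, at −0.38 with TMM and −0.42 with library totals for the nuclear members, and at −1.04 and −1.15 for the mitochondrial ones. As a share of all counts, nuclear members took 0.698% ± 0.0339 in WT and 0.662% ± 0.123 in NASH. By library the nuclear share was 0.703%, 0.648%, 0.713% and 0.725% in WT and 0.769%, 0.765%, 0.528% and 0.587% in NASH, so on this scale NASH replicates 1 and 2 were above every WT library. Mitochondrial members took 2.09% ± 0.174 and 1.39% ± 0.492. NASH replicate 1 (1.93%) lay above WT replicate 4 (1.83%), so on this scale the groups overlapped. They also overlapped for mt-Nd4, with 387725 of 26270597 counts in NASH replicate 1 and 458036 of 32603193 in WT replicate 4. For mt-Nd5 the same libraries overlapped, with 97594 and 114026 counts. With library totals alone, where 24.9% of all genes were called higher and 1.78% lower, 0 members were called lower and 3 higher, Ndufa2 (adjusted p = 0.0452), Ndufa4l2 (0.0458) and Atp5s (0.0374).

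**Figure D5:**
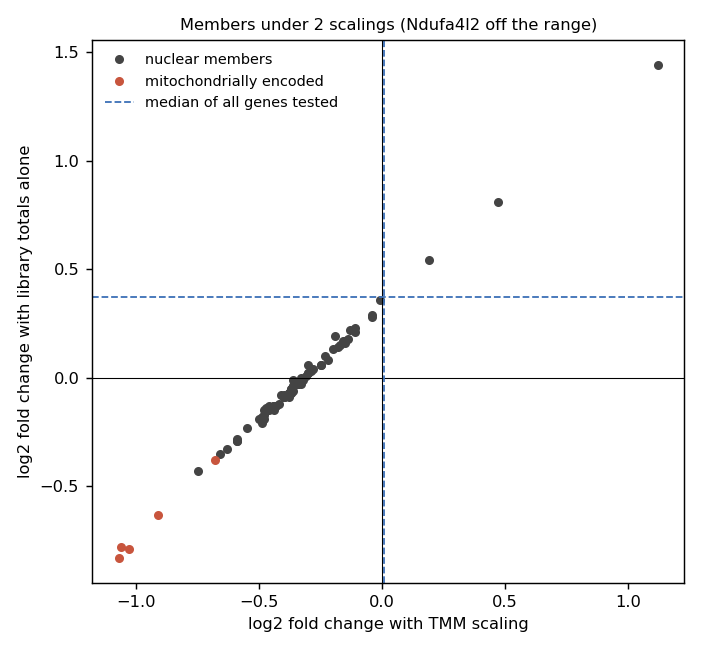
Log2 fold change of each tested member with TMM scaling (horizontal axis) and with library totals alone (vertical axis). Dashed lines mark the median of all genes tested, 0.01 and 0.37. Changing the scaling shifts all members by about the same amount, and 4 of the 5 mitochondrially encoded genes (red) stay the lowest. Ndufa4l2, at 2.66 and 3.10, is outside the plotted range.

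Genes that build, regulate or feed the complexes were counted from lists. Oxidative phosphorylation genes listed as missed by the naming rule numbered 5, among them the subunit cytochrome c1 (Cyc1) and the carrier cytochrome c (Cycs). All 5 were negative, with a median of −0.30 and 0 called. Cycs measured 125 ± 11.2 CPM in WT and 101 ± 31.4 in NASH, and Cyc1 66.1 ± 7.37 and 54.8 ± 18.4. Both log2 fold changes, −0.30 ± 0.21 and −0.27 ± 0.23, turned to 0.01 and 0.03 with library totals alone, and both genes were chosen after their values were seen. Of 41 tested assembly factors, 2 were called lower and 0 higher (median −0.17), both for complex I, a share no greater than the 6% of all genes called lower. On library totals 0 were called lower and 3 higher, 29 of the 41 were positive and the median was 0.17. Ndufaf4 measured 69.7 ± 4.90 CPM in WT and 47.5 ± 8.96 in NASH (−0.55 ± 0.14, edgeR adjusted p = 0.0230), and Ecsit 31.8 ± 5.43 and 21.9 ± 3.60 (−0.54 ± 0.16, 0.0476). Ndufaf4 lost its call without NASH replicate 4 (0.0622) or WT replicates 1 to 3 (0.0555 to 0.0663), and Ecsit with each library left out in turn other than NASH replicate 1 and WT replicate 2 (0.0674 to 0.117). Neither was called with library totals alone (0.210 and 0.295).

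Among coenzyme Q synthesis and electron transfer flavoprotein genes, 1 of 16 was called lower and 0 higher, beside 6% and 12.9% of all genes. The median was −0.25. With library totals alone it was 0.09, with 0 called lower and 2 higher, beside 24.9% of all genes called higher. The gene called was the methyltransferase Coq5, at 33.9 ± 1.83 CPM in WT and 24.1 ± 5.37 in NASH (−0.50 ± 0.15, edgeR adjusted p = 0.0494). Its call was lost with each library left out in turn other than NASH replicate 1 (0.0654 to 0.122), and with library totals alone (0.317). None of the 14 citric acid cycle genes was called (median −0.25, with 2 lower and 1 higher at an unadjusted edgeR p under 0.05). Their median was 0.07 with library totals alone, and 2 were then called higher, the dehydrogenases Idh2 (edgeR adjusted p = 0.00673) and Mdh2 (0.0354), chosen after their values were seen. Of 22 general mitochondrial genes used as a measure of mitochondrial content, 21 were negative (16 were positive with library totals alone). Of these genes, 1 was called, higher, beside 12.9% of all genes called higher. The gene called was Slc25a4, the ADP/ATP carrier of heart and muscle, at 3.96, 4.30, 3.70 and 3.11 CPM in WT and 5.32, 8.59, 15.0 and 18.5 in NASH. All NASH libraries were above WT (1.65 ± 0.36, edgeR adjusted p = 0.0159), and without WT replicate 1 the adjusted p was 0.0522.

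Of 24 tested genes that act on mitochondrial DNA and its transcripts, 6 were called lower and 0 higher, beside 6% of all genes called lower, with a median of −0.21. Scaled by library totals, 1 was called lower, 15 of the 24 were positive and the median was 0.13. Lrpprc, which stabilises mitochondrial mRNAs, measured 127, 134, 134 and 139 CPM in WT and 96.2, 105, 66.1 and 81.9 in NASH (−0.61 ± 0.15, edgeR adjusted p = 0.0217). Every NASH library was under every WT library, including replicate 1. Fastkd5, needed to process mitochondrial precursor RNAs, measured 7.58, 7.58, 8.56 and 9.06 CPM in WT and 3.94, 5, 3.91 and 3.19 in NASH (−1.03 ± 0.18, edgeR adjusted p = 0.00978). It was called with every library left out in turn and with library totals alone (0.0421).

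The transcription factor Tfb2m, at 47.4 ± 0.477 CPM in WT and 33.9 ± 5.09 in NASH, showed −0.48 ± 0.12 (edgeR adjusted p = 0.0218), and the accessory DNA polymerase subunit Polg2 showed −0.79 ± 0.19 (0.0236). Tfam, which packages mitochondrial DNA, missed the threshold at −0.43 ± 0.14 (0.0599). The calls of Lrpprc and Tfb2m were lost without NASH replicate 4 or any WT library (0.0533 to 0.0656), that of Polg2 without NASH replicate 4 or WT replicates 1 to 3 (0.0524 to 0.0696), and those 3 with library totals alone (0.0744, 0.321 and 0.192).

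Of 11 tested regulators of mitochondrial biogenesis and respiration, 3 were called lower and 0 higher (median −0.18), beside 6% of all genes called lower. When library totals were used, 1 was called lower and 1 higher, 7 of the 11 were positive and the median was 0.17. Ppara, the fatty acid sensing nuclear receptor, measured 205, 239, 215 and 245 CPM in WT and 154, 155, 65.4 and 101 in NASH (−0.93 ± 0.26, edgeR adjusted p = 0.0350). No NASH library reached the WT range, and it was also called with library totals alone (0.0332). Yy1 (−0.37 ± 0.10, 0.0318) and the GABP subunit gene Gabpb2 (−0.32 ± 0.09, 0.0354) were at −0.01 and 0.05 with library totals alone. The calls of all 3 were lost without NASH replicate 4 or any WT library (0.0593 to 0.0946), and that of Gabpb2 also without NASH replicate 2 (0.0597). The coactivator gene Ppargc1b (−0.41 ± 0.33), the receptor Esrra (−0.18 ± 0.15, or 0.17 with library totals alone) and Nrf1, a factor that binds promoters of respiratory genes (0.12 ± 0.19, or −0.07 without NASH replicate 3), were not called. Gabpa was under the filter, at 0.364 ± 0.115 CPM in WT and 0.116 ± 0.146 in NASH, and Ppargc1a was not analysed here.

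Of 9 uncoupling and antioxidant genes, 2 were called higher and 0 lower, beside 12.9% of all genes called higher and 6% lower. With library totals alone 3 were called higher and 0 lower, beside 24.9% and 1.78% of all genes. Ucp2, a carrier of the inner membrane that is common in immune cells, measured 17.1, 17.7, 18 and 16.1 CPM in WT and 34.7, 44.9, 91.9 and 82.3 in NASH (1.88 ± 0.29, edgeR adjusted p = 0.00691). Every NASH library was above WT, with replicates 3 and 4 highest, as for the macrophage markers, whose part was not tested. Ucp3, its relative of muscle and brown fat, had 71 counts in NASH and 0 in WT, at 0.394, 0.999, 0.584 and 0.366 CPM in NASH (edgeR adjusted p = 0.0123). Ucp2 and Ucp3 were called with each library left out in turn and with library totals alone.

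Promoters of the members were searched for the letters that known regulators bind. RefSeq windows (GRCm38.p6) were matched for 66 of the 85 members, and the 250 bases before the start were read on both strands. The NRF1 motif, GCGCA followed by any base and GCGC, was found in 12 of the 66 (18.2%), beside 8.99% of 9549 tested genes and 4.23% of all 27025 genes with a window. The ETS motif CCGGAAG, which the GABP factor binds, was found in 18.2% of members and 15.1% of tested genes, the ERR motif TNAAGGTCA in 3.03% and 0.89%, and the YY1 motif AAGATGGCG in 3.03% and 1.3%. CCAAT was found in 43.9% and 40.6%, and the HIF core ACGTG in 24.2% and 24.7%. Of the 18 NRF1 matches in members, 0 overlapped a match of another motif. The 11 tested members with an NRF1 match had a median log2 fold change of −0.38, and the 52 with a window and no match had −0.37.

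The stretches next to the start that lie in no annotated gene are printed for the member that was called, Ndufv3, which holds no NRF1 match, and for members of complexes I and V that hold one. The printed stretches run 5′ to 3′ on the strand of the gene, with NRF1 matches in capitals, from chr17:31519981-31520114 (plus) for Ndufv3, chr16:37654454-37654618 (minus) for Ndufb4 and chr11:115419963-115420127 (minus) for Atp5h.
Ndufv3: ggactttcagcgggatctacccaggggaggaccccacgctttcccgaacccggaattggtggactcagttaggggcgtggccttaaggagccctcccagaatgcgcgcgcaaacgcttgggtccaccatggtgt
Ndufb4: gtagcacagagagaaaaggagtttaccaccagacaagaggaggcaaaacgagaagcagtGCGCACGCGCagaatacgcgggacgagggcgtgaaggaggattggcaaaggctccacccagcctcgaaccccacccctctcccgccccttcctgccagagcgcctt
Atp5h: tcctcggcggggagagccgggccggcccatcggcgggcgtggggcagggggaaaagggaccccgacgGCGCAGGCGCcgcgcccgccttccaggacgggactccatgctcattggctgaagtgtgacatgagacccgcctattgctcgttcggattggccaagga
Beside them stand log2 fold changes of −0.36 ± 0.11 for Ndufv3, −0.36 ± 0.18 for Ndufb4 (edgeR adjusted p = 0.186) and −0.50 ± 0.20 for Atp5h. A match shows that these letters are present, not that a factor is bound.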

How the data were processed

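Frozen liver RNA was extracted with Trizol and sequenced from TruSeq stranded total RNA libraries, per the labels' protocols. HISAT2 and HTSeq 0.9.1 are named in the submitters' processing notes, with the mouse builds mm9 and mm10 and no role for either. The sources used here do not give the strand setting or the annotation. Values in the deposited table are raw counts for each gene, per the file headers. Its 8 columns of the authors' normalized values were not used.

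Genes were tested with edgeR 4.0.16 (R 4.3.3; TMM, default low-count filter, robust quasi-likelihood test, no covariates), after a check on simulated data. Limma-voom 3.58.1, DESeq2 1.42.0, other scalings, no filter, a replicate block and each library left out were alternatives. A library score is the mean log2 CPM (prior count 2) of a list less its WT mean. Coordinates, exon lengths and overlaps are from GENCODE M21 (GRCm38), matched by gene ID for all 85 members. Levels per kilobase use all annotated exons, so long rare isoforms lower them. Gene-level reads from pseudogene copies may be split or lost.

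Named genes were the mitochondrially encoded members, called members, the highest per complex, tissue isoforms, up to 5 members without overlap between groups, up to 4 called genes per list and 6 regulators. Exceptions are stated. The members and 24 gene lists (13 pathway, 11 cell type) were chosen with earlier results of these data known.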

Additional observations from a re-analysis of the deposited data

Results flagged for a closer look

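Within a group of 4 libraries, a library was singled out where the gap to its nearest neighbour took up nearly all of the group's range (Dixon's test at the 95% level). Chance does this in about 1 of 20 groups, and 8 of the 118 groups tested were singled out, close to that share. Among the members, mt-Nd3 in WT replicate 4 stood at 48.9 CPM, against 31.3 to 33.5 in the other WT libraries. Cox4i2 stood at 0.532 CPM in NASH replicate 4 (others 0 to 0.0254) and at 0.035 in WT replicate 4 (others 0), from 16 counts and 1 count. Cox8b stood at 0.21 CPM in WT replicate 4 (others 0), from 6 counts. Among regulators, Esrra was 8.19 CPM in NASH replicate 3 (others 10.6 to 10.9) and Gabpa 0.333 in NASH replicate 2 (others 0.0254 to 0.0665). Ndufaf4, the assembly factor of complex I, was 60.9 CPM in NASH replicate 1 (others 42.3 to 44.3), and Polg2 was 2.46 in NASH replicate 4 (others 3.48 to 3.55). No cause was tested for any of them.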

How the results depend on the processing

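The number of members called lower was 1, and 0 with library totals alone, 0 without the low-count filter, 0 to 27 with a library left out (27 without NASH replicate 1) and 8 with DESeq2 (Ndufa5, Ndufa6, Ndufv2, Ndufv3, Uqcrb, Uqcrh, mt-Nd3 and mt-Nd4). It was 1 with DESeq2 size factors in edgeR, 1 with limma-voom (mt-Nd3, not Ndufv3) and 1 with library sizes without mitochondrially encoded genes. The number called higher was 0, and 3 with library totals alone, 0 to 1 with a library left out and 1 with DESeq2. Over all genes, DESeq2 called 1277 lower and 2273 higher, and edgeR without NASH replicate 1 called 1504 lower and 2238 higher. With library totals alone the median log2 fold change of the nuclear members was −0.05 and that of complex IV −0.05. With a library left out, medians ranged from −0.53 to −0.22 for nuclear members, −1.51 to −0.72 for mitochondrial members, −0.55 to −0.24 for complex I, −0.65 to −0.26 for complex II, −0.53 to −0.20 for complex III, −0.53 to −0.20 for complex IV and −0.54 to −0.21 for complex V. The lowest of each was without NASH replicate 1. All medians were negative under every alternative run.

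With library totals alone, 53 members were negative in place of 77. Among the 49 genes named in the text and compared across settings, signs turned with library totals alone for Esrra (0.17), Gabpb2 (0.05), Uqcrq (0.29), Sdhc (0.14), Cox4i1 (0.01), Cox7a2l (0.36), Cyc1 (0.03) and Cycs (0.01). They also turned for Nrf1 (−0.07) and Uqcrq (0.06) without NASH replicate 3, Uqcrq (0.05) and Cox7a2l (0.00) without WT replicate 4, and Cox7a2l (0.02) without WT replicate 3. Without each library in turn, Nrf1 ranged from −0.07 to 0.22, Uqcrq from −0.15 to 0.06 and Cox7a2l from −0.05 to 0.02. The cause was not tested.

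Replicate numbers are shared between groups, but same-numbered libraries did not deviate together (correlations 0.0344, −0.139, −0.144 and −0.0157), so the numbers were not taken to pair them. With the replicate block, members called lower numbered 0 and higher 0, of 151 lower and 467 higher in all, and medians were −0.41 for nuclear members, −1.21 for mitochondrial members, −0.42, −0.54, −0.44, −0.41 and −0.45 for complexes I to V. Of the 13 list genes named as called, Ucp2 was called with the block (adjusted p = 0.0345) and the other 12 were not (0.0518 for Fastkd5 to 0.0925 for Yy1, with 0.0662 for Slc25a4 and 0.0755 for Ucp3).

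Depth did not limit most members, which had many counts, but Cox4i2, Cox6b2, Cox8b and Ndufa5 could not be tested, and the folds of Ndufa4l2 and Cox7a1 rest on under 1 CPM in WT.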

Other observations

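The total counts of NASH replicates 1 and 4 differed by 1 count, at 26270597 and 26270596, while their genes did not match. The mitochondrially encoded members summed to 507797 counts in replicate 1 and 295910 in replicate 4, and the nuclear members to 202009 and 154225.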
